A study of Homo sapiens with 6 samples.

Results

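The genes described here are 39 genes of the glutathione, thioredoxin and NRF2 antioxidant systems, chosen by symbol from the 58395 genes of the deposited count tables. The choice was made with earlier results of these data known. All 39 symbols matched a row with counts. The list holds 13 genes of glutathione synthesis, reduction and use, 11 of the thioredoxin and peroxiredoxin system, 4 regulators of the transcription factor NRF2, 8 genes of NRF2 targets, ferritin, superoxide dismutase and catalase, and 3 exporters. RNA came from 6 clonal lines of HEK293, an established human embryonic kidney line. GST lines 2, 8 and 9 overexpressed GST-3F (glutathione S-transferase with the tag the labels write as 3F) and served as the controls. NOCT lines 4, 11 and 12 overexpressed NOCT ∆(2-15)-3F, nocturnin without residues 2 to 15. The labels name no other treatment, and all lines grew for 3 days in the same medium. Each line is 1 clone with 1 library, so a p-value here sets the group difference against the spread between clones. Within that spread, variation of clone, culture and library cannot be told apart. All 6 lines carry a construct, and the control protein belongs by name to an enzyme family that uses glutathione. A difference brought by NOCT and one brought by GST cannot be told apart.

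Cells remove peroxides with a pair of thiol systems that both draw electrons from NADPH. In the glutathione system, SLC7A11 imports cystine, GCLC with GCLM and then GSS build glutathione, glutathione peroxidases and transferases spend it, and GSR regenerates it. In the thioredoxin system, thioredoxin reductases keep thioredoxin reduced, and thioredoxin in turn recharges most peroxiredoxins. NRF2, the product of NFE2L2, is held low by KEAP1 and is set mainly by protein stability. Once stable it pairs with a small MAF protein at antioxidant response elements, which BACH1 can occupy as a repressor. Nocturnin acts on NADP and NADPH, the cofactor of both systems.

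The element that NRF2 binds was located first, because the comparison covers genes known as its targets. RefSeq promoters on GRCh38.p14 (300 bases each, 250 before and 50 after a start) were listed for 28 of the 39 genes, as 45 promoters. The core searched was TGACNNNGC on both strands, whose other strand reads GCNNNGTCA. It was found in 6 of the 45 promoters (13.3%), against 13.3% of all 35116 promoters, so this window did not set the promoters searched apart. No promoter was listed for SLC7A11, GSS, GSR, TXN2, PRDX1, PRDX6, HMOX1, FTH1, SOD1, ABCC1 or ABCC3, so these genes were not searched. The lines below give the matches that lie wholly upstream of a start, which were in GSTP1, GCLM, TXNRD1 and KEAP1. They are written 5′ to 3′ on the strand of the gene with the core in capitals. The positions are chr11:67583736-67583764 (plus strand) for GSTP1, chr1:93909446-93909474 (minus strand) for GCLM, chr12:104215670-104215698 (plus strand) for the first start of TXNRD1 and chr12:104286920-104286948 (plus strand) for its second start. The KEAP1 matches lie at chr19:10502807-10502835 and chr19:10502784-10502812, both on the minus strand.
GSTP1: gccggcgccgTGACTCAGCactggggcgg
GCLM: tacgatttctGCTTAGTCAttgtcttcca
TXNRD1, first start: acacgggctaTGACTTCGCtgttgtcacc
TXNRD1, second start: gtggatttctGCTTTGTCAttctgactct
KEAP1, distal match: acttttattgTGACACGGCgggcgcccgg
KEAP1, proximal match: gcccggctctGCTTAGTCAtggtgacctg
Distances are counted from the RefSeq start. The core of GSTP1 begins 66 bases before it and overlaps an AP-1 site (TGANTCA, palindromic, present in 7.7% of all promoters). In GCLM the core spans bases 34 to 26 before the start, and at the second TXNRD1 start bases 102 to 94. The GENCODE genes GSTP1, KEAP1 and TXNRD1 begin further upstream than these RefSeq starts (for TXNRD1, the second), so those matches lie inside the annotated gene. A further TXNRD1 match that reaches its first start, and a match of MGST1 past a start, are not printed. A match of letters is a description and not a measured binding site.

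The libraries held 19729745 to 24422406 gene counts, and the construct row named by each label was counted in its own lines (46 to 88 GST reads in GST lines, 46 to 82 NOCT reads in NOCT lines) against 0 to 1 and 3 to 7 reads in the other group (exact two-sided permutation p = 0.1 each, the smallest that 3 lines against 3 allow). Of the genes fixed as markers of HEK293, VIM was at 353 to 856 TPM, CDH2 at 83.0 to 147 TPM KRT8 at 31.3 to 114 TPM and KRT18 at 56.03 to 130 TPM, with the highest VIM, KRT8 and KRT18 in NOCT lines 4 and 11. PAX2 was low throughout and lower in every NOCT line (0.370 to 0.618 TPM) than in any GST line (1.796 to 2.45 TPM). LHX1 was at 2.32 to 13.8 TPM, and NEFM was under 0.25 TPM except in NOCT line 12, at 4.44 TPM. The 8 markers of leukocytes, endothelium, hepatocytes and red cells had 0 to 7 counts in any library. The part of these marker differences in the results was not tested.

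Levels per gene length, in the authors' TPM (transcript abundance scaled by gene length and depth), spanned a wide range. FTL, the light chain of the iron store ferritin, was the most abundant of the 39 in GST lines at 468 ± 28.98 TPM (SD, n = 3). PRDX1, a cytosolic peroxiredoxin, followed at 383 ± 54.4 TPM, then SOD1, the cytosolic superoxide dismutase, at 360 ± 39.5 TPM and TXN, thioredoxin itself, at 319 ± 29.1 TPM. The 3 GST lines of FTL lay above those of PRDX1, while the ranges of PRDX1, SOD1 and TXN each overlapped the next. PRDX2 (218 TPM), GPX4 (203 TPM) and PRDX6 (175 TPM) followed with overlapping ranges, and GSTP1 (150 TPM) lay just below PRDX6. The NRF2 regulators were moderate, from 18.0 ± 1.01 TPM for NFE2L2 to 28.05 ± 1.82 TPM for BACH1. Of the genes that NRF2 is known to induce, levels differed widely in GST lines: TXNRD1 was at 66.3 ± 9.65 TPM, GCLM at 22.9 ± 5.41 TPM and SLC7A11 at 20.6 ± 6.54 TPM, whereas NQO1, a quinone reductase, was at 2.94 ± 0.513 TPM and HMOX1, haem oxygenase, at 7.76 ± 1.29 TPM. SRXN1, the sulfiredoxin that repairs peroxiredoxins, had 1, 5 and 2 counts in GST lines 2, 8 and 9 and 5, 3 and 0 in NOCT lines 4, 11 and 12. OSGIN1, an oxidative stress-induced growth inhibitor, had 7, 2 and 3 counts against 14, 11 and 4 in the same order of lines, and the exporter ABCC3 had 0, 0 and 0 against 5, 1 and 1. Since 0 reads are compatible with as many as 3, these 3 genes sit at or near the limit of detection and were not tested.

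**Figure D1:**
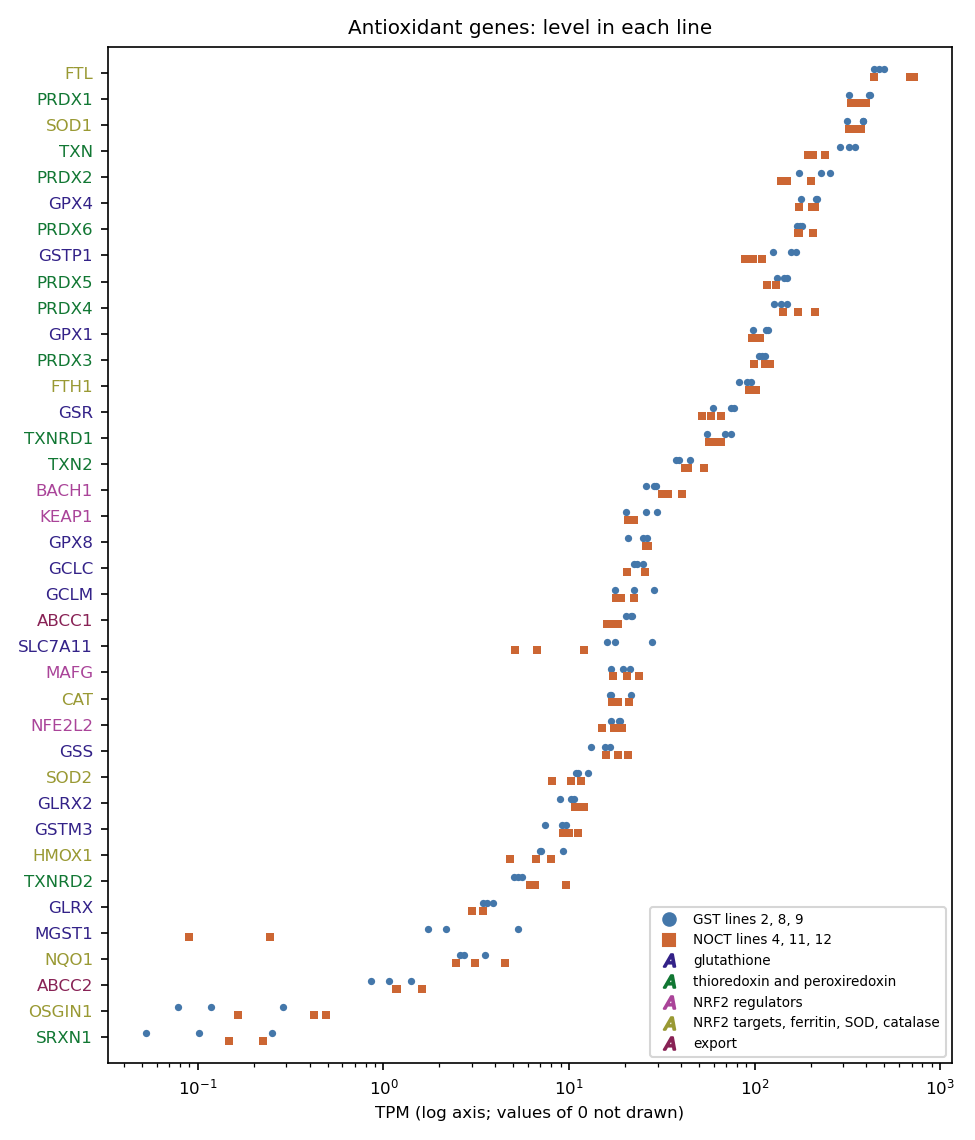
TPM of 38 antioxidant genes (log axis) in the 3 GST lines (circles) and the 3 NOCT lines (squares), one point per line, ordered by the GST mean; gene names are coloured by system, values of 0 are not drawn and ABCC3 is left out. The points of both groups overlap for most genes. MGST1, SLC7A11, TXN, GSTP1, ABCC1, PRDX5 and GLRX have all NOCT lines below the GST lines, and BACH1, TXNRD2 and GLRX2 have them above.

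In the comparison of NOCT with GST lines, 36 of the 39 genes had enough reads for edgeR's quasi-likelihood test, and 0 of them reached an adjusted p under 0.05. Over all 17261 genes tested, 10 did (0.0579%), of which 0.0348% were lower and 0.0232% higher in NOCT lines. No antioxidant gene can therefore be called changed at this threshold. At an unadjusted p under 0.05 there were 8 genes lower in NOCT lines (MGST1, SLC7A11, GSTP1 and GSR of the glutathione system, TXN, PRDX2 and PRDX5 of the thioredoxin system, and the exporter ABCC1) and 2 higher (TXNRD2 and BACH1). These are 22.2% and 5.56% of the 36, against 6.52% and 7.38% of all genes tested. The 39 genes were chosen with earlier results of these data known. These shares and those that follow therefore describe the list and are no test of it. The groups did not overlap with NOCT lines below in 7 genes (19.4%, against 9.54% of all genes) and with NOCT lines above in 3 (8.33%, against 10.5%). In total 23 of the 36 had a lower mean in NOCT lines (63.9%, against 49.3% of all genes), and their median log2 fold change was -0.14, beside 0.00 for all genes. The split depends on the scaling: with spike-in totals as library sizes it was 5 lower and 6 higher at an unadjusted p under 0.05, with 20.4% of all genes passing and their median at 0.15. With limma on log2(TPM + 0.1) it was 5 and 0, with 13.1% of all genes passing. In bulk RNA, fewer cells with a transcript and less of it per cell cannot be told apart.

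The call depends on the test and the lines. DESeq2 on the same genes called 5 of the 36, all lower (MGST1, SLC7A11, GSTP1, TXN and ABCC1), where it called 3.41% of all genes with an adjusted p, 1.59% of them lower and 1.82% higher. Leaving out NOCT line 12 raised edgeR's count to 6, with 893 of the 17261 genes called over all. The 6 were MGST1, SLC7A11, GSTP1, TXN and PRDX2, lower in NOCT lines, and FTL, higher in NOCT lines. ABCC1 was not among them. Leaving out any other line left the count at 0.

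**Figure D2:**
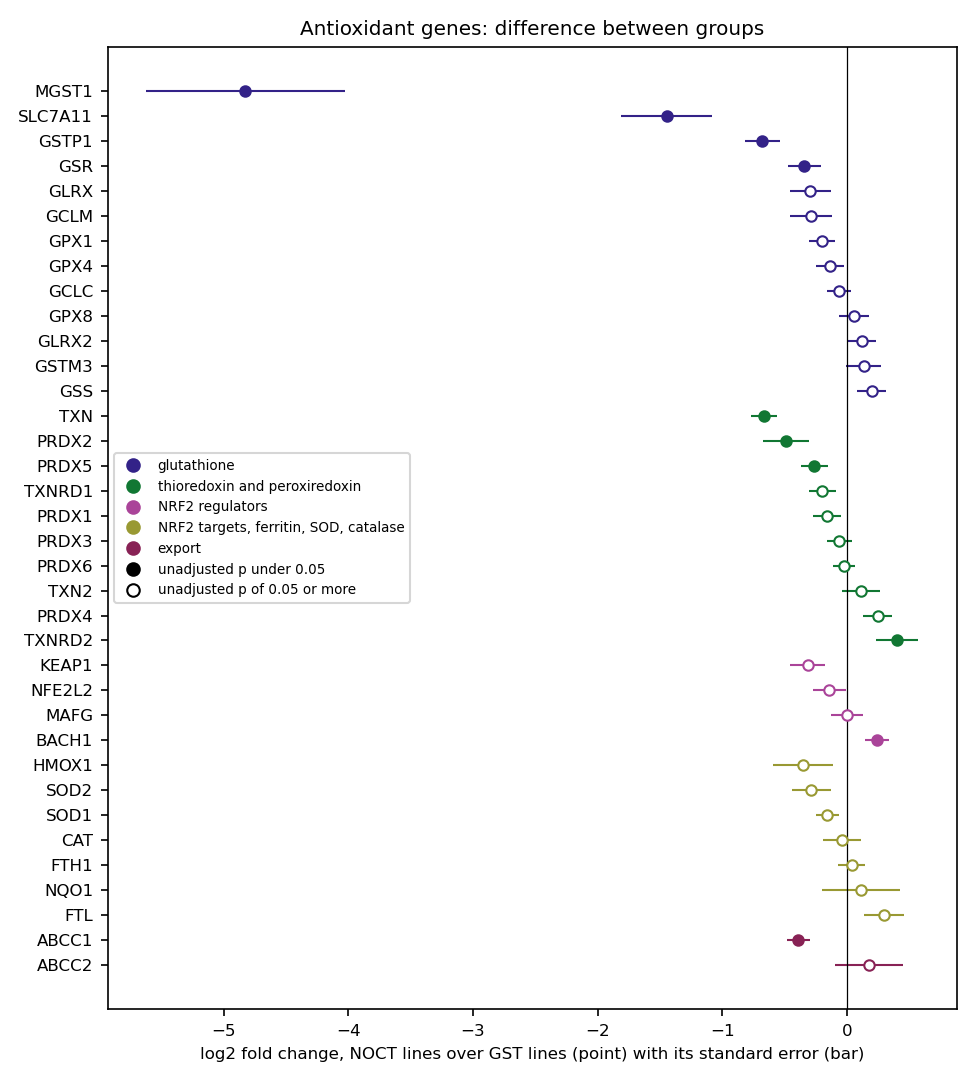
log2 fold change of NOCT over GST lines (point) with its standard error (bar) for the 36 antioxidant genes tested, grouped by system; filled points have an unadjusted p under 0.05. MGST1 lies at -4.83 and SLC7A11 at -1.45, while the other 34 genes lie between -0.68 and 0.40.

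Within the glutathione system, the values furthest apart were those of the cystine importer SLC7A11 and of the transferases MGST1 and GSTP1, but not of the transferase GSTM3. SLC7A11 (chromosome 4, 138164097 to 138242349, minus strand, GRCh38) encodes the cystine and glutamate antiporter xCT. It had 101, 53.1 and 61.2 CPM (read counts scaled to library size by TMM) in GST lines 2, 8 and 9 and 15.9, 21.9 and 41.2 CPM in NOCT lines 4, 11 and 12. Every NOCT line was below every GST line, although the spread was wide on both sides. GST lines were 2.73-fold higher, which is -1.45 ± 0.36 (SE) as a log2 fold change of NOCT over GST lines (edgeR adjusted p 0.184). GST line 2, the highest, also had neighbouring genes 0.36 above their mean over the 6 lines (log2).

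MGST1 (chromosome 12, 16347142 to 16609259, plus strand) encodes a membrane-bound glutathione transferase and peroxidase, and few of its reads were found in NOCT lines. GST lines 2, 8 and 9 had 278, 96 and 118 counts, and NOCT lines 4, 11 and 12 had 15, 5 and 0. The means were 8.30 ± 5.54 CPM and 0.271 ± 0.297 CPM (SD, n = 3 each). The groups were far apart, but the level in NOCT lines is close to the counting limit, and GST line 2 had more reads than the other 2 GST lines together. The log2 fold change of -4.83 ± 0.80 (SE) had an edgeR adjusted p of 0.0847, and MGST1 entered the test only through its counts in GST lines. Its size is imprecise: over the 17 alternatives it ranged from -6.08 to -1.78. The -1.78 came from another scale, limma on log2(TPM + 1), and log2(TPM + 0.1) gave -3.92. Leaving out 1 line gave -6.08 to -4.14.

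GSTP1 (chromosome 11, 67583595 to 67586656, plus strand), the pi-class transferase, was the most abundant transferase of the list. It stood at 88.7, 110 and 108 CPM in GST lines 2, 8 and 9 and at 54.4, 63.2 and 74.0 CPM in NOCT lines 4, 11 and 12. The highest NOCT line lay below the lowest GST line. The log2 fold change was -0.68 ± 0.14 (SE, edgeR adjusted p 0.123). Its neighbours on chromosome 11 did not differ between the groups (difference of 0.01 in log2), and with their level as an offset the value was -0.68. The mu-class transferase GSTM3, by contrast, had 13.02, 14.9 and 16.4 CPM in GST lines 2, 8 and 9 and 17.1, 15.9 and 15.5 CPM in NOCT lines 4, 11 and 12, with overlapping groups (0.13 ± 0.14, SE).

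The enzymes that make glutathione had overlapping groups. GCLC, the catalytic subunit of glutamate-cysteine ligase, was level, at 72.3, 74.1 and 72.0 CPM in GST lines 2, 8 and 9 and 71.8, 74.9 and 62.7 CPM in NOCT lines 4, 11 and 12. Its log2 fold change was -0.06 ± 0.10 (SE, edgeR adjusted p 0.810). GCLM, the modifier subunit, had 35.8, 53.1 and 43.7 CPM against 31.3, 40.9 and 36.4 CPM, with overlapping groups (-0.29 ± 0.17, SE, edgeR adjusted p 0.478). GSS, which adds glycine, was the only one of these 3 with a higher mean in NOCT lines, at 30.1, 35.1 and 34.6 CPM against 41.5, 38.3 and 34.6 CPM in the same order of lines (0.20 ± 0.12, SE, edgeR adjusted p 0.491). Its chromosome 20 neighbours were at 0.35 and 0.24 in NOCT lines 4 and 11 but at -0.23 in NOCT line 12, and taking them as an offset gave -0.04.

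GSR, the NADPH-dependent reductase that regenerates glutathione, was at 83.1, 99.9 and 101 CPM in GST lines 2, 8 and 9 and at 70.3, 65.9 and 87.8 CPM in NOCT lines 4, 11 and 12. NOCT line 12 fell inside the range of the GST lines and the other 2 NOCT lines lay below it. The log2 fold change was -0.34 ± 0.13 (SE, edgeR adjusted p 0.313). 

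The glutathione peroxidases differed less. GPX1, the cytosolic enzyme, had 52.2, 58.2 and 59.5 CPM in GST lines 2, 8 and 9 and 47.3, 46.8 and 53.8 CPM in NOCT lines 4, 11 and 12 (-0.20 ± 0.10, SE). GPX4, which reduces lipid hydroperoxides in membranes, had 133, 148 and 158 CPM against 138, 117 and 145 CPM (-0.13 ± 0.11, SE). GPX8 of the endoplasmic reticulum had 36.1, 34.7 and 28.8 CPM against 33.2, 33.8 and 36.4 CPM (0.05 ± 0.12, SE). In all 3 peroxidases the groups overlapped. The glutaredoxins, which use glutathione to reduce protein disulfides, differed in sign. GLRX was lower in every NOCT line (8.49 ± 0.379 against 6.92 ± 0.603 CPM), and the mitochondrial GLRX2 was higher in every NOCT line (22.03 ± 1.14 against 24.0 ± 1.10 CPM, SD, n = 3 each). Neither had an unadjusted p under 0.05 (0.109 and 0.307).

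In the thioredoxin system, TXN itself had the smallest p-value of all 36 genes. TXN (chromosome 9, 110243811 to 110256640, minus strand) was at 122, 136 and 133 CPM in GST lines 2, 8 and 9 and at 75.5, 92.4 and 78.5 CPM in NOCT lines 4, 11 and 12. The 3 GST lines lay close together and clear of the NOCT lines. Its log2 fold change was -0.67 ± 0.11 (SE), a level 1.59-fold higher in GST lines (edgeR adjusted p 0.0751, DESeq2 adjusted p 4.79e-05, from 4.79e-05 to 0.426 over the 17 alternatives). The genes around TXN shared part of this pattern. In NOCT lines 4 and 12 they were at -0.30 and -0.35 (log2, median deviation), whereas NOCT line 11 was at 0.19 and the GST lines at 0.12 to 0.19. With the neighbours' level as an offset, TXN was at -0.36 ± 0.09 (SE, edgeR adjusted p 0.160), and NOCT line 11 had the lower TXN without the lower neighbours.

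The reductases that keep thioredoxin reduced showed other patterns. TXNRD1, the cytosolic reductase, had 139, 171 and 167 CPM in GST lines 2, 8 and 9 and 143, 128 and 144 CPM in NOCT lines 4, 11 and 12, so the groups overlapped (-0.20 ± 0.11, SE, edgeR adjusted p 0.456). Mitochondrial TXNRD2 had 16.5, 15.9 and 15.1 CPM in GST lines 2, 8 and 9 and 26.0, 17.5 and 19.4 CPM in NOCT lines 4, 11 and 12. Every NOCT line was above every GST line, by 0.40 ± 0.17 on the log2 scale (SE, edgeR adjusted p 0.341). TXNRD2 lies on chromosome 22 (19875517 to 19941992, minus strand), where neighbours were at 0.09 to 0.16 in NOCT lines and -0.20 to -0.07 in GST lines, and with them as an offset its value was 0.13 ± 0.16 (SE). Mitochondrial thioredoxin, TXN2, on the same chromosome, was at 0.11 ± 0.15 without and at -0.18 ± 0.14 with its own neighbours as an offset (log2 fold changes with SE).

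The peroxiredoxins, which reduce hydrogen peroxide, split. PRDX2, a cytosolic peroxiredoxin, was at 134, 183 and 172 CPM in GST lines 2, 8 and 9 and at 101, 97.8 and 149 CPM in NOCT lines 4, 11 and 12. NOCT line 12 fell within the GST range and the other NOCT lines did not (-0.49 ± 0.18, SE, edgeR adjusted p 0.292). PRDX5 had 44.0, 45.6 and 46.1 CPM in GST lines 2, 8 and 9 and 33.4, 39.01 and 40.9 CPM in NOCT lines 4, 11 and 12. These groups did not overlap (-0.26 ± 0.11, SE, edgeR adjusted p 0.336). PRDX4, the peroxiredoxin of the secretory pathway, ran the other way, with 90.2, 97.3 and 95.2 CPM in GST lines 2, 8 and 9 and 129, 110 and 95.6 CPM in NOCT lines 4, 11 and 12 (0.25 ± 0.12, SE, edgeR adjusted p 0.409), where NOCT line 12 again lay within the controls. PRDX1 had 182, 218 and 226 CPM against 195, 170 and 195 CPM in the same order of lines (-0.16 ± 0.11, SE). The mitochondrial PRDX3 had 134, 133 and 135 CPM against 134, 114 and 138 CPM (-0.06 ± 0.10, SE), and PRDX6 was at -0.02 ± 0.09. All 3 had overlapping groups. Annotation lists 4 pseudogenes each for PRDX2 and PRDX3, 7 for TXN, 16 for FTL and 25 for FTH1. It also lists 3 each for SOD1 and GLRX, 2 each for GPX1 and GSTM3, and 1 each for PRDX1, PRDX4, SOD2 and GSTP1. Reads shared with pseudogenes were not assigned, so levels of all these genes are uncertain.

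**Figure D3:**
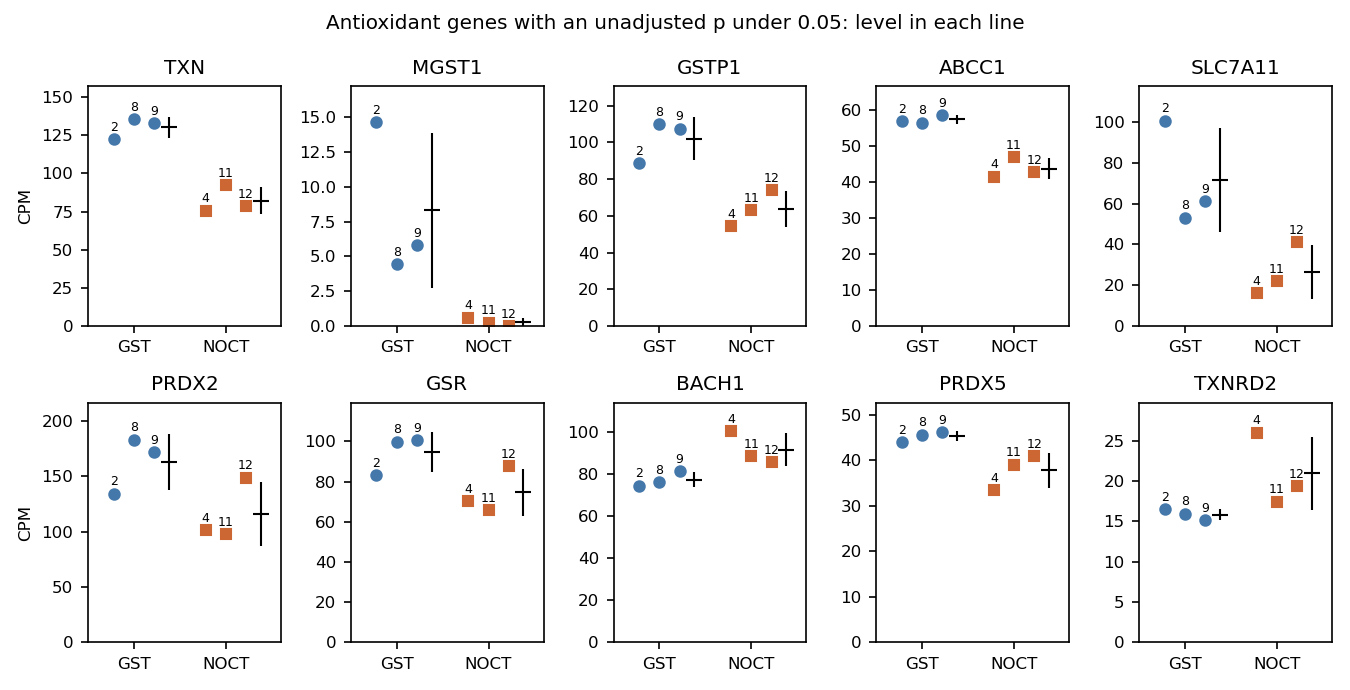
CPM in each line (numbered point) of the 10 antioxidant genes with an unadjusted p under 0.05, with the mean and SD of each group beside the points; axes start at 0. TXN, MGST1, GSTP1, ABCC1, SLC7A11 and PRDX5 have all 3 NOCT lines below the GST lines, BACH1 and TXNRD2 have them above, and PRDX2 and GSR overlap through NOCT line 12.

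Among the regulators, BACH1, the repressor that competes with NRF2 for its sites, had the smallest p-value. BACH1 (chromosome 21, 29194071 to 29630751, plus strand) was at 74.5, 76.3 and 81.5 CPM in GST lines 2, 8 and 9 and at 101, 88.7 and 85.8 CPM in NOCT lines 4, 11 and 12. Every NOCT line was above every GST line. The difference was small, at 0.24 ± 0.10 (log2, SE, edgeR adjusted p 0.318), and 0.31 ± 0.11 with neighbours as an offset. NFE2L2, which encodes NRF2, had 41.7, 37.9 and 36.3 CPM in GST lines 2, 8 and 9 and 29.2, 38.9 and 36.9 CPM in NOCT lines 4, 11 and 12. Only NOCT line 4 lay outside the GST range, and its chromosome 2 neighbours were at -0.38 in that line. With them as an offset the log2 fold change of NFE2L2 went from -0.14 ± 0.13 to -0.01 ± 0.08 (SE). KEAP1, the adaptor that targets NRF2 for degradation, was at 28.2, 38.3 and 35.2 CPM against 25.9, 26.3 and 29.7 CPM in the same order of lines (-0.31 ± 0.14, SE, edgeR adjusted p 0.371), the groups overlapping through GST line 2. MAFG, a small MAF partner of both NRF2 and BACH1, had 32.6, 34.9 and 39.97 CPM against 39.9, 36.01 and 31.7 CPM, with equal means to within the spread.

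NQO1 and HMOX1, a pair often used to read NRF2 activity, had overlapping groups. NQO1 had 4.27, 2.88 and 3.19 CPM in GST lines 2, 8 and 9 and 2.59, 3.40 and 5.21 CPM in NOCT lines 4, 11 and 12, so both its lowest and its highest value came from a NOCT line (0.11 ± 0.31, SE, edgeR adjusted p 0.899). HMOX1 had 6.33, 5.75 and 8.00 CPM against 5.14, 6.495 and 4.06 CPM in the same order of lines (-0.35 ± 0.24, SE, edgeR adjusted p 0.546). Its chromosome 22 neighbours were higher in the NOCT lines, and with them as an offset HMOX1 was at -0.63 ± 0.23 (SE, unadjusted p 0.0256, edgeR adjusted p 0.271, from 0.271 to 0.860 over the alternatives). At 62 to 163 counts per library these 2 genes carry the largest standard errors of the 7 tested genes in the list of targets, ferritin, superoxide dismutase and catalase.

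The ferritin, superoxide dismutase and catalase genes all had overlapping groups. FTL was at 153, 132 and 157 CPM in GST lines 2, 8 and 9 and at 204, 203 and 136 CPM in NOCT lines 4, 11 and 12. NOCT lines 4 and 11 were above the GST range and NOCT line 12 was inside it. Its neighbours on chromosome 19 had the same order (0.36, 0.17 and -0.13 in NOCT lines 4, 11 and 12), and the log2 fold change went from 0.30 ± 0.16 to 0.02 ± 0.10 (SE) with them as an offset. Without NOCT line 12, FTL was at 0.47 with an edgeR adjusted p of 0.0402 (from 0.0402 to 0.941 over the alternatives). FTH1, the ferritin heavy chain, had 68.7, 57.3 and 70.1 CPM against 65.4, 63.4 and 72.4 CPM in the same order of lines (0.04 ± 0.11, SE).

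SOD1 had 236, 265 and 279 CPM in GST lines 2, 8 and 9 and 242, 229 and 228 CPM in NOCT lines 4, 11 and 12 (-0.16 ± 0.09, SE). Catalase, CAT, which breaks down hydrogen peroxide in peroxisomes, had 21.03, 24.7 and 20.1 CPM against 18.5, 20.6 and 24.8 CPM (-0.04 ± 0.15, SE). Both had overlapping groups. SOD2, the mitochondrial superoxide dismutase, had 68.3, 71.8 and 64.5 CPM in GST lines 2, 8 and 9 and 43.2, 56.7 and 67.8 CPM in NOCT lines 4, 11 and 12. Here again NOCT line 12 sat within the GST range (-0.29 ± 0.16, SE, edgeR adjusted p 0.456).

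Of the exporters, ABCC1 (chromosome 16, 15949577 to 16143074, plus strand), the pump MRP1 for glutathione conjugates, was at 57.1, 56.6 and 58.8 CPM in GST lines 2, 8 and 9 and at 41.6, 47.1 and 42.8 CPM in NOCT lines 4, 11 and 12. The groups did not overlap. The coefficient of variation was 1.96% in GST lines and 6.6% in NOCT lines, and a spread over so few lines is itself imprecise. The log2 fold change of ABCC1 was -0.39 ± 0.09 (SE, edgeR adjusted p 0.165), and -0.34 ± 0.08 with neighbours as an offset. ABCC2, a related pump, was scarce, at 2.48, 3.01 and 1.92 CPM against 2.36, 3.40 and 2.61 CPM in the same order of lines (0.17 ± 0.27, SE).

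The genes beside each antioxidant gene on its chromosome were compared throughout, by taking up to 50 tested genes either way and the median of their deviations from their own means. Of the 36 genes, those on chromosomes 22, 19, 20, 16, 9 and 4 that had neighbours more than 0.2 apart between the groups were TXN2, TXNRD2, HMOX1, FTL, GSS, NQO1, TXN and SLC7A11. Of the genes with an unadjusted p under 0.05, GSTP1, MGST1, PRDX2, PRDX5 and GSR had neighbours within 0.03 of equal. Taking the neighbours' level as an offset left 0 of the 36 past an adjusted p of 0.05 (0.214% of all genes passed). It gave an unadjusted p under 0.05 for 12 genes lower and 2 higher in NOCT lines (14.5% of all genes in either direction). GCLM, KEAP1, HMOX1 and SOD2 joined the lower genes, PRDX4 replaced TXNRD2 among the higher, and the median of the 36 was -0.11.

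**Figure D4:**
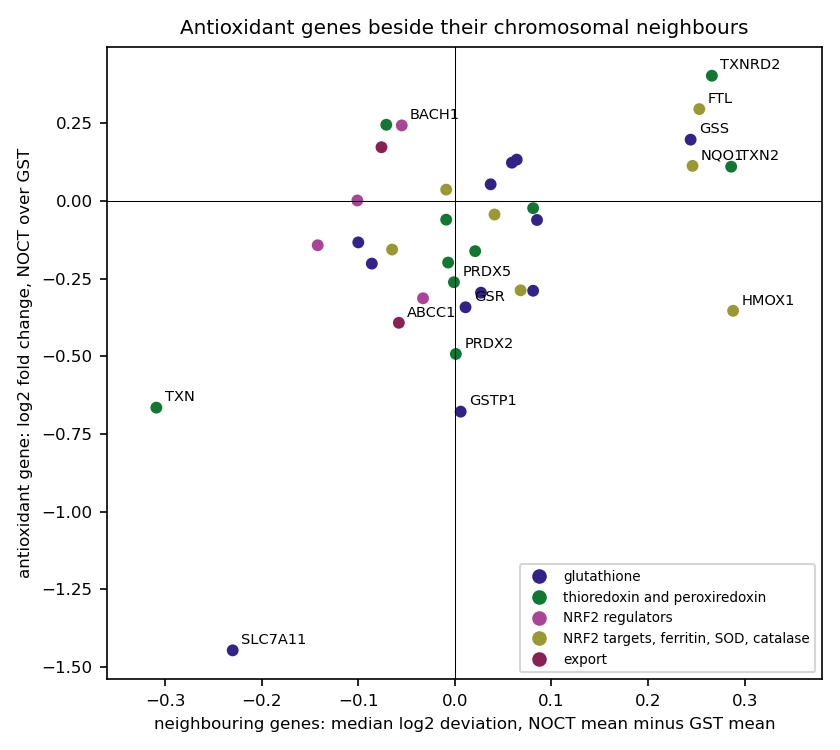
Each point is 1 of 35 antioxidant genes (MGST1, at -4.83 on the vertical axis and 0.03 on the horizontal, is left out): its log2 fold change of NOCT over GST lines against the difference between groups in the median log2 deviation of its chromosomal neighbours. TXN and SLC7A11 have lower neighbours in NOCT lines, TXNRD2, FTL and GSS higher ones, and GSTP1, PRDX2 and PRDX5 lie near 0 on the horizontal axis.

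The 3 NOCT lines did not contribute alike. NOCT lines 4 and 11 were each below the range of the GST lines in 18 of the 36 genes (50.0%, against 32.9% and 30.2% of all genes tested), and NOCT line 12 in 11 (30.6%, against 28.3%). They were above it in 8, 8 and 9 genes (22.2%, 22.2% and 25.0%, against 33.1%, 31.1% and 29.3% of all genes). Set against each gene's mean in GST lines, the 36 genes had a median of -0.12, -0.11 and -0.08 in NOCT lines 4, 11 and 12, on the log2 scale, beside -0.05, 0.03 and 0.05 in GST lines 2, 8 and 9. GST line 2 was the lowest control for genes that include PRDX1, PRDX2, GSR, GPX1, GPX4, GSTP1, TXN, KEAP1 and SOD1. It was the highest control for others, among them SLC7A11, MGST1 and NQO1. Without it, edgeR gave 12 genes lower and 0 higher at an unadjusted p under 0.05, and without GST line 8, GST line 9, NOCT line 4 or NOCT line 11 it gave 5 lower and 0 or 1 higher. The share of all genes was 13.2% without GST line 2, 10.3% and 8.23% without GST lines 8 and 9, and 9.94% and 10.5% without NOCT lines 4 and 11. Without NOCT line 12 there were 11 lower and 4 higher, and 23.2% of all genes passed.

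Another 85 genes of the same pathways, from lists chosen beside the 39 with earlier results of these data known, were read the same way. Of these, 71 were tested and 0 passed an adjusted p of 0.05. A lower mean in NOCT lines was found for 45 (63.4%, against 49.3% of all genes), much the same share as for the 36. The groups did not overlap with NOCT lines below in 9 (12.7%, against 9.54% of all genes). NOCT lines lay above in 10 (14.1%, against 10.5%). DESeq2 called 1 lower and 2 higher, where it called 1.59% of all genes with an adjusted p lower and 1.82% higher. At an unadjusted p under 0.05 there were 5 lower and 6 higher (7.04% and 8.45%), close to the shares of all genes, and the median log2 fold change was -0.07. In the glutathione list, GSTZ1, a transferase of tyrosine breakdown, was at 0.45 ± 0.11 (log2 fold changes with SE). GGT7, of the gamma-glutamyltransferase family, was at 0.63 ± 0.17, and GSTA4, which conjugates lipid aldehydes, at -0.45 ± 0.16. With neighbours as an offset GSTZ1, GGT7 and GSTA4 were at 0.12, 0.38 and -0.54. The smallest p-values of the thioredoxin list were those of TMX1, a thioredoxin-like protein of the endoplasmic reticulum membrane (0.45 ± 0.13), TXNIP and NXN. TXNIP, the inhibitor of thioredoxin, was at -0.71 ± 0.30 and NXN, nucleoredoxin, at 0.43 ± 0.18. With neighbours as an offset TMX1, TXNIP and NXN were at 0.13, -0.77 and 0.40. TXNIP was at 33.4, 28.9 and 24.4 CPM in GST lines 2, 8 and 9 and at 10.3, 16.5 and 26.1 CPM in NOCT lines 4, 11 and 12, so NOCT line 12 again lay with the controls.

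Of the other NRF2 regulators and targets, MAFK, a second small MAF partner of NRF2 and BACH1, had 14.0, 16.7 and 20.5 CPM in GST lines 2, 8 and 9 and 62.6, 42.3 and 21.1 CPM in NOCT lines 4, 11 and 12. NOCT line 12 was barely above the highest GST line, and the log2 fold change was 1.30 ± 0.35 (SE, edgeR adjusted p 0.196). PIR, the iron-binding nuclear protein pirin, went the other way (9.91 ± 2.20 against 5.57 ± 1.19 CPM, SD, n = 3 each, -0.83 ± 0.24, SE, edgeR adjusted p 0.211), and CBR1, a carbonyl reductase, was at -0.31 ± 0.10. With neighbours as an offset MAFK, PIR and CBR1 were at 1.41, -0.73 and -0.21. HMOX2, another haem oxygenase gene, and the other superoxide and peroxide genes PARK7 and CCS had unadjusted edgeR p-values of 0.0914, 0.470 and 0.494.

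The authors' deposited table of their own comparison, in which the construct rows fix the direction, calls 3 of the 39 genes at an adjusted p under 0.05, all lower in NOCT lines. It calls 2.87% of all its genes with an adjusted p, 1.38% lower and 1.49% higher. In the authors' deposited table TXN has a log2 fold change of -0.62 (adjusted p 2.12e-04), GSTP1 -0.61 (adjusted p 0.00374) and MGST1 -0.45 (adjusted p 0.00336). The fold changes of the authors' deposited table are named as shrunken, and its MGST1 value lies far from the -4.83 of edgeR. The authors' deposited table leaves ABCC1 (-0.37, adjusted p 0.0653) and SLC7A11 (-0.70, adjusted p 0.0740) above the threshold, and among the other pathway genes it calls MAFK (0.90, adjusted p 0.00336) and PIR (-0.65, adjusted p 0.0436).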

How the data were processed

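Total RNA of 6 clonal HEK293 lines was sequenced from stranded, rRNA-depleted libraries. The authors deposited counts as unnormalised reads for each gene; the submitters' processing notes name STAR 2.5.2b, HTSeq 0.6.1p1, DESeq2 1.16.1 and GRCh38, without roles. The authors also deposited TPM values, and a table of log2 fold changes (with standard errors and a test score), p-values and a mean normalised signal, per the file headers. The 5 rows that name no feature took 42.9% to 47.1% of reads and were left out of library sizes. Genes were kept with filterByExpr (minimum count 10), scaled by TMM and tested with edgeR 4.0.16 in R 4.3.3 (glmQLFTest, Benjamini-Hochberg over 17261 genes, threshold 0.05); SE is the log2 fold change over the root of F. The fit was tested on simulated data. DESeq2 1.42.0, limma 3.58.1, other scalings and filters, a neighbour offset (50 genes a side, each averaging 1 CPM or more) and leaving out each line were alternatives. Positions are from GENCODE 29 on GRCh38, matched for 58275 genes. The 39 genes and the pathway lists were chosen with earlier results of these data known. Values per line were printed for genes with an unadjusted p under 0.05 and for listed anchors of each role, and at most 3 genes of each further list were named, by smallest p. Permutation tests were exact.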

Additional observations from a re-analysis of the deposited data

How the results depend on the processing

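No paired analysis was possible because the 2 groups share no line numbers. Over 17 alternatives, 24 of the 36 genes kept their direction in each. Genes past the threshold numbered 508 in DESeq2, 6 with limma on log2(TPM + 1), 16 with limma voom and 37 with the neighbour offset, against 10. With spike-in totals and with total counts as library sizes there were 22 and 34. Without a filter on low counts there were 888, among 34539 genes tested in place of 17261. Leaving out 1 line gave 0 (without GST line 9, 1420 at an unadjusted p under 0.05 in edgeR) to 893 (without NOCT line 12). Antioxidant genes past the threshold numbered 5 in DESeq2, 5 without the filter, and 0 to 6 with 1 line left out. Spike-in totals moved the median of all genes to 0.15 and that of the 36 genes to 0.0095, a gap of -0.14 as before; limma gave -0.0545 and -0.0563 for log2(TPM + 1) and log2(TPM + 0.1), where all genes were at 0.07 and 0.08. The cause of these moves was not tested. Directions turned for genes near 0. With spike-in totals GCLC was at 0.0885, GPX4 0.0131, PRDX3 0.085, PRDX6 0.124, NFE2L2 0.00596 and CAT 0.103. With limma on log2(TPM + 1) and log2(TPM + 0.1), GCLC was at 0.0207 and 0.0212, PRDX3 0.0215 and 0.0216, PRDX6 0.061 and 0.0612, and CAT 0.0372 and 0.0392. With total counts PRDX6 was at 0.0256. The neighbour offset put GSS at -0.0443, TXN2 at -0.176 and NQO1 at -0.103. MAFG was at -0.0057 in DESeq2, -0.00594 with median-ratio scaling and -0.0065 without the filter. With 1 line left out, GCLC ranged from -0.12 to 0.01, GPX8 -0.0386 to 0.118, TXN2 -0.0366 to 0.197, PRDX3 -0.113 to 0.014, PRDX6 -0.088 to 0.0192, MAFG -0.0866 to 0.0873, NQO1 -0.201 to 0.317, FTH1 -0.0576 to 0.0896 and CAT -0.165 to 0.0446. Depth limits MGST1, SRXN1, OSGIN1, ABCC3 and ABCC2, which rest on few reads.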

Other observations

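The balance between partners was followed within each library as a ratio of TPM values, for 4 pairs chosen after the levels were seen. TXNRD1 to TXN was 0.193, 0.215 and 0.213 in GST lines 2, 8 and 9 and 0.323, 0.236 and 0.312 in NOCT lines 4, 11 and 12. The groups did not overlap. The exact two-sided permutation p was 0.1, the smallest possible for 3 lines against 3, and 0.4 when adjusted over the 4 pairs. TXN was itself lower in every NOCT line, so this ratio partly restates the values of TXN. The chromosomal neighbours of TXN were at -0.30, 0.19 and -0.35 (log2) in NOCT lines 4, 11 and 12. The ratio of GCLC to GCLM (1.06 ± 0.197 and 1.22 ± 0.190, SD, n = 3 each), of NFE2L2 to KEAP1 (0.734 ± 0.171 and 0.807 ± 0.112) and of FTH1 to FTL (0.192 ± 0.00366 and 0.168 ± 0.0544) overlapped between the groups. FTH1 to FTL stayed between 0.188 and 0.194 in GST lines and was 0.139, 0.135 and 0.231 in NOCT lines 4, 11 and 12, so that NOCT line 12 lay on the other side of the controls.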
